A study of Mus musculus with 4 samples.

Results

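C7 nuclei, by working name C7-positive dermal fibroblasts, are nuclei of intact mouse back skin that met a gate. They carried transcripts of at least 2 of 6 genes: C7, A930009A15Rik, Plcxd3, Aox3, Gm32647 and Lgr5. No general fibroblast marker was part of the gate, and some members lay outside the fibroblasts. C7 encodes a terminal complement component, Plcxd3 a phospholipase C-like protein, Aox3 an aldehyde oxidase, and Lgr5 a receptor for R-spondins that also marks hair follicle stem cells. A nucleus was kept when at least 200 genes were detected and mitochondrial transcripts made up at most 5% of its UMIs (unique molecular identifiers, 1 per captured molecule). A C7 nucleus also had fewer than 2 of Ccbe1, Ptchd4, Tmem132c, Unc5d, Lrrtm4 and Adarb2, and fewer than 2 of Spag17, Nxph1, Gm765, Gabra3, Sntg1 and Gpc3. The last 2 sets, used in the same way, gave the Ccbe1 nuclei and the Spag17 nuclei, the fibroblast subsets against which C7 nuclei were set. The rule found 2452 C7 nuclei among the 16733 nuclei kept from intact skin, and 23448 barcodes of the whole series met the same filter. The 18 genes of the 3 gates chose the nuclei, so their levels are descriptions and were not tested.

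Dermal fibroblasts secrete the collagens, elastin and proteoglycans of the skin and differ with depth. Papillary fibroblasts lie under the epidermis and signal to hair follicles, reticular fibroblasts lie deeper and make thick collagen bundles, and fibroblasts of the hypodermis and fascia lie among fat and over muscle. Complement components, R-spondin receptors and Wnt modulators are among the secreted and surface proteins by which such subsets are told apart.

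Single nuclei of back skin were sequenced from wild-type C57BL/6 mice, an inbred strain, at 8 weeks of age. Skin of 2 mice was taken 1 day after wounding and that of 2 mice without a wound, with 1 library per mouse. All comparisons below are within the 2 unwounded libraries, mouse 1 and mouse 2, and in each pair of values the first is from mouse 1. No group carried a genetic change or a drug. Mouse 1 gave 1611 C7 nuclei with 2483760 UMIs, 323 Ccbe1 nuclei with 590281 UMIs and 85 Spag17 nuclei with 129160 UMIs. Mouse 2 gave 841 C7 nuclei with 999404 UMIs, 306 Ccbe1 nuclei with 412704 UMIs and 133 Spag17 nuclei with 168160 UMIs. Levels are counts summed over the nuclei of a subset in a mouse, scaled to a fixed total (CPM, counts per 1e6 of that sum). A count of 0 allowed up to 1.21 and 3.0 CPM in C7 nuclei, 5.08 and 7.27 CPM in Ccbe1 nuclei and 23.2 and 17.8 CPM in Spag17 nuclei, a floor of 3 counts. Floors and intervals cover counting error only. The Spag17 sums, from the fewest nuclei, gave the least precise levels.

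C7 nuclei made up 23.1% (95% Wilson interval 22.2 to 24.1) of the nuclei kept from mouse 1 and 8.61% (8.07 to 9.18) of those from mouse 2. The share was tied to depth. Among nuclei with under 500 UMIs, 9.38% (7.19 to 12.2) and 2.79% (2.37 to 3.27) met the gate, and among nuclei with 2000 UMIs or more, 34.9% (32.1 to 37.8) and 26.4% (22.4 to 30.8) did. The median nucleus kept held 906 UMIs in mouse 1 and 472 in mouse 2. With each nucleus thinned to 500 UMIs, 13.8% and 8.04% met the gate, against 24.3% and 15.3% of the same nuclei unthinned. Thinning left out 533 and 5240 shallower nuclei. At a matched depth mouse 1 still had the larger share.

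**Figure D1:**
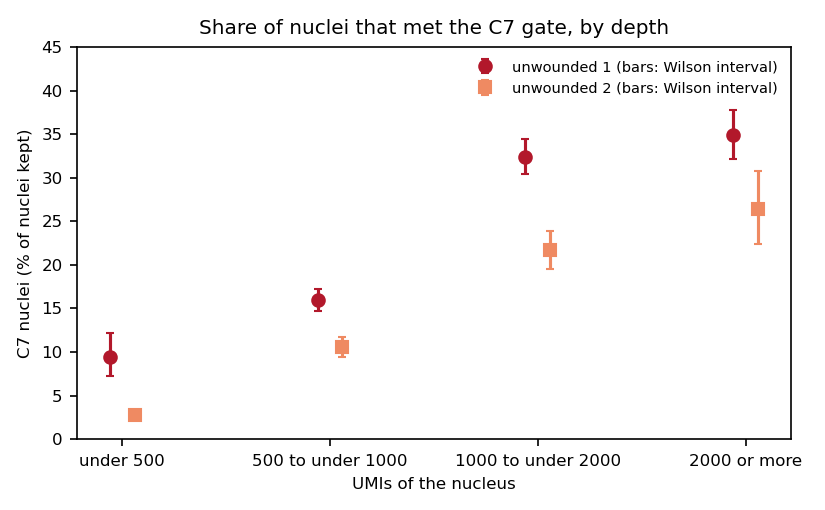
Share of nuclei that met the C7 gate (vertical axis, percent of nuclei kept) in 4 classes of UMIs per nucleus (horizontal axis), for the unwounded libraries of mouse 1 (circles) and mouse 2 (squares), with 95% Wilson intervals as bars. In both mice the share is lowest under 500 UMIs (9.38% and 2.79%) and highest at 2000 UMIs or more (34.9% and 26.4%).

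The gate genes varied among the members. Most C7 nuclei had exactly 2 of the 6 genes, 60.7% in mouse 1 and 71.8% in mouse 2, and 6 and 2 nuclei had all of them. C7 itself was detected in 88.4% and 77.4% of members, Lgr5 in 48.9% and 52.3%, Plcxd3 in 50.3% and 39.4%, and Aox3 in 27% and 34.1%. The rest of the members therefore entered without a C7 transcript. Detection of C7 was not limited to the members either, at 30.01% and 14.2% of all other nuclei kept, Ccbe1 and Spag17 nuclei included. In a cluster of nuclei led by the skeletal muscle genes Ttn, Agbl1 and Neb, 17.3% had a C7 UMI, at a median of 1624 UMIs per nucleus. The parts of free RNA and of depth in these shares were not tested. C7 reached 2179 and 1558 CPM in C7 nuclei, 527 and 317 CPM in all other nuclei kept and 112 CPM in the muscle cluster. Of the 6 genes, C7 (chromosome 15, 4988762 to 5063740, minus strand, GRCm38) and Plcxd3 (chromosome 15, 4375491 to 4575553, plus strand) lie 413 kb apart with C6 and Mroh2b between them. A930009A15Rik (chromosome 10, 115569986 to 115582448, plus strand) lies within Lgr5 (115450311 to 115587780, minus strand), and 27 and 22 nuclei were members by that overlapping pair alone.

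Fibroblast markers not used by the gate were abundant in C7 nuclei. The 8 fibroblast markers Col1a1, Col1a2, Col3a1, Col5a2, Dcn, Pdgfra, Fbn1 and Lum were all detected and summed to 15630 and 15920 CPM in C7 nuclei, against 15445 and 14560 CPM in Ccbe1 nuclei and 9616 and 9562 CPM in Spag17 nuclei. Nuclei outside the gates held 10218 and 11591 CPM of the same markers, and the part of free collagen RNA in any of these sums was not tested. Either side of the threshold the marker sum was 14263 and 15648 CPM in members with exactly 2 gate genes and 11093 and 13110 CPM in nuclei with exactly 1. Members with 3 or more gate genes reached 17143 and 16384 CPM, and nuclei with no gate gene had 8890 and 10928 CPM. Dermal papilla and sheath markers were near the floor in C7 nuclei, at a summed 4.83 and 4.0 CPM over 6 genes, with Sox2 and Crabp1 at 0 in both mice. Mkx, a homeobox gene also known from tendon, stood at 213 and 191 CPM, while the tendon markers Scx (0.805 and 0 CPM) and Kera (0 in both mice) were at or under the floor. Tnmd, the remaining tendon marker, was detected in C7 nuclei of both mice. The 4 tendon markers summed to 221 and 206 CPM in C7 nuclei. Their sums were 239 and 223 CPM in Ccbe1 nuclei and 54.2 and 65.4 CPM in Spag17 nuclei. The depth of a nucleus in the dermis was not measured, so the word dermal in the working name was not checked.

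Skeletal muscle transcripts were the largest foreign signal in the members. The 5 muscle markers Ttn, Ckm, Neb, Myh4 and Acta1 were all present and summed to 2569 and 1344 CPM in C7 nuclei, 961 and 1044 CPM in Ccbe1 nuclei and 457 and 987 CPM in Spag17 nuclei. Nuclei outside the gates held 7587 and 5427 CPM. Only 25 of 1611 and 11 of 841 C7 nuclei had over 1% of their UMIs from these 5 genes, and they held 76.8% and 58.3% of the muscle UMIs of C7 nuclei. Ttn, the gene of the giant sarcomere protein titin, stood at 384 and 360 CPM without those nuclei and at 2090 and 1027 CPM in all members. The macrophage markers summed to 248 and 258 CPM in C7 nuclei, against 424 and 448 CPM in Ccbe1 nuclei and 426 and 172 CPM in Spag17 nuclei. The keratinocyte markers summed to 180.4 and 243 CPM in C7 nuclei, 144 and 179 CPM in Ccbe1 nuclei and 85.2 and 220.0 CPM in Spag17 nuclei.

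When all nuclei of the unwounded libraries were clustered without the 18 gate genes, C7 nuclei were spread over several clusters and had none of their own. Of 21 clusters, cluster 0, led by 6330411D24Rik, Col4a3, Rgs6 and Pde3a, held 42% of C7 nuclei in mouse 1 and 34.5% in mouse 2. It held 1.86% and 2.61% of Ccbe1 nuclei and 2.35% and 3.76% of Spag17 nuclei. C7 nuclei were 46.9% of that cluster. A further 17.3% of C7 nuclei lay in cluster 3, led by Cdh18, Pappa and Rarb, which held 62.2% of Ccbe1 nuclei. Cluster 1, led by Slc17a9, Olfml1 and Tgfbi, held 16.5% of C7 nuclei and 8.74% of Ccbe1 nuclei. Cluster 9, led by Ebf2, held 73.9% of Spag17 nuclei and 4.81% of C7 nuclei. Cluster 0 set C7 apart from Ccbe1 nuclei at this resolution but not at a coarser one. At resolution 0.5 the cluster with most C7 nuclei held 60.9% of C7 nuclei, 73.1% of Ccbe1 nuclei and 33.6% of all nuclei. These are descriptions of where nuclei fell, since the clusters were made from the same counts.

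Some members lay outside the fibroblasts. Cluster 8, led by Nrros, Adgre1 and Mrc1, held 5.34% of C7 nuclei, cluster 5, led by Skint5, Skint6 and Dsc3, held 2.65%, and the muscle cluster held 1.22%. In these 3 clusters 7.79%, 5.93% and 5.89% of all nuclei met the C7 gate. C7 UMIs were found in 21.9%, 16.6% and 17.3% of them, against 62.4% of cluster 0. Clusters 3 and 9, which held most Ccbe1 and most Spag17 nuclei, had C7 UMIs in 35.6% and 50% of their nuclei. C7 stood at 691 CPM in cluster 3 and 1313 CPM in cluster 9, against 1723 CPM in cluster 0. Further C7 nuclei lay in cluster 15, led by Reln and Flt4 (1.43%), cluster 11, led by Far2 (1.06%), and cluster 2, led by Tshr and Cidec (1.02%).

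**Figure D2:**
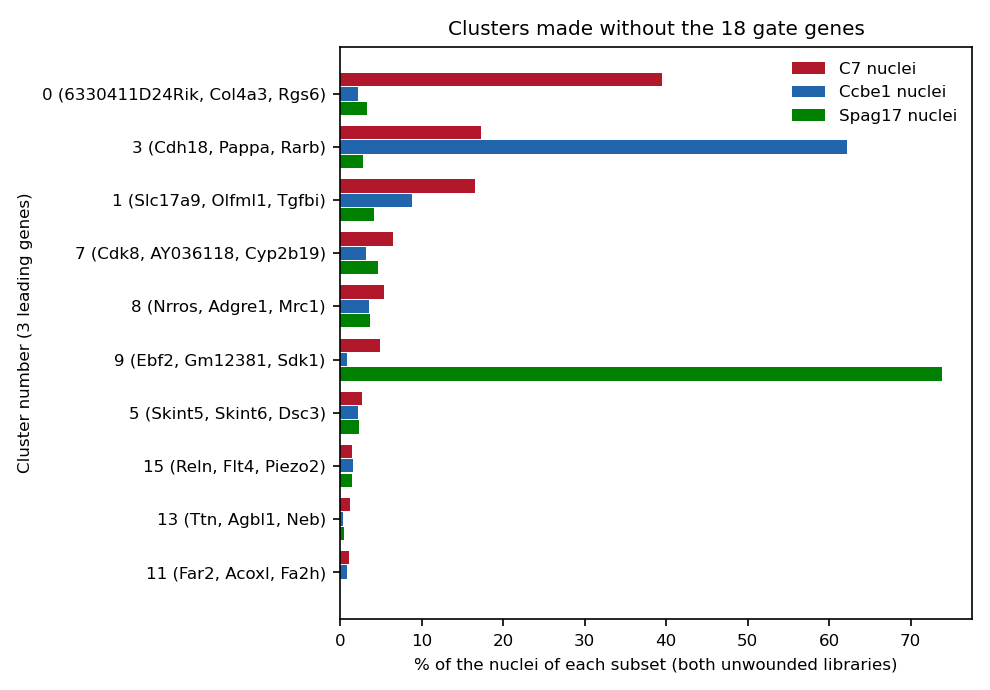
Percent of C7, Ccbe1 and Spag17 nuclei of both unwounded mice (bars, horizontal axis) in the 10 clusters with most C7 nuclei (vertical axis, cluster number with 3 leading genes), clustered without the gate genes. The longest bar of C7 nuclei is at cluster 0 (39.4% of them), that of Ccbe1 nuclei at cluster 3 (62.2%) and that of Spag17 nuclei at cluster 9 (73.9%).

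The genes outside the gate were then compared between C7 nuclei and the mean of the other 2 subsets. In C7 nuclei the type IV collagen gene Col4a3, the phosphodiesterase gene Pde3a and the growth factor gene Tgfb2 were higher. The leptin receptor gene Lepr, the transcription factor genes Foxp2 and Sox5 and several Wnt and Hedgehog pathway genes were lower. Col4a3 did not pass against Spag17 nuclei alone, nor Sox5 against Ccbe1 nuclei alone. Of 7321 genes tested with edgeR's quasi-likelihood test, 267 (3.65%) were higher and 225 (3.07%) were lower in C7 nuclei at a Benjamini-Hochberg adjusted p under 0.05, 6.72% in either direction. Over all genes tested, log2 fold changes had a median of 0.03. In the pairwise contrasts 395 genes (5.40%) were higher and 385 (5.26%) lower in C7 than in Ccbe1 nuclei, 10.7% in all. Against Spag17 nuclei 239 (3.26%) were higher and 355 (4.85%) lower, 8.11% in all. The contrasts share the C7 sums, so they are given side by side and not compared. The p-values come from 6 sums of 2 mice in 1 fit. The spread of a gene was taken mostly from that of all genes, with 22.7 prior against 2 residual degrees of freedom. The gate genes were themselves picked on these nuclei. A p-value therefore sets a gene's difference between the gated sums against that spread, and does not say whether the subsets exist. Without mouse as a block the calls against Ccbe1 nuclei were 513 of 7321, and with DESeq2 the calls against the mean were 177.

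**Figure D3:**
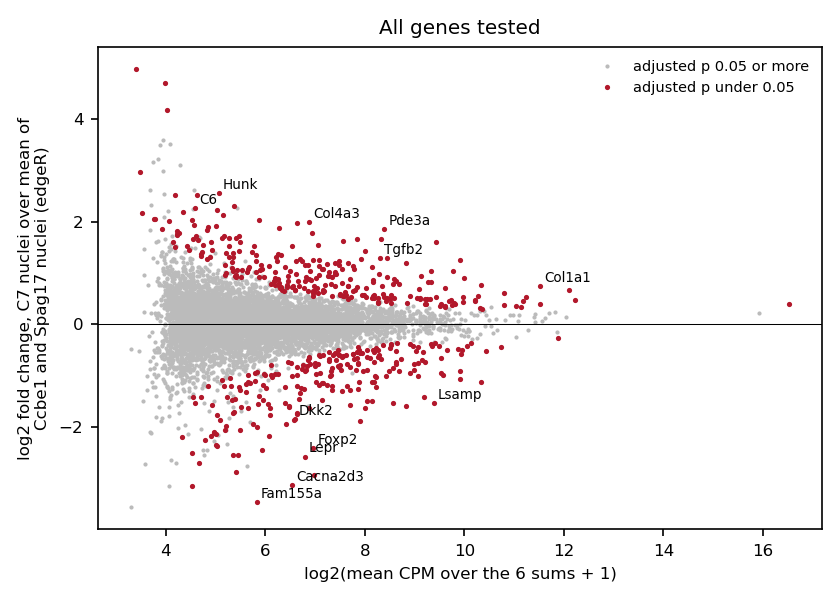
Log2 fold change of each of the 7321 genes in C7 nuclei over the mean of Ccbe1 and Spag17 nuclei (vertical axis, edgeR) against log2 of its mean CPM over the 6 sums plus 1 (horizontal axis), with genes at adjusted p under 0.05 in red. The 267 genes called higher and 225 called lower lie on both sides of 0 over the whole range of levels.

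The 12 largest rises and 12 largest falls were taken among genes of at least 50 CPM whose C7 values lay beyond all 4 values of the other subsets, so that their groups do not overlap by choice. Such genes numbered 115 among the rises and 125 among the falls. Pde3a, which breaks down cyclic nucleotides (chromosome 6, 141249269 to 141507448), had 564 and 629 CPM in C7 nuclei, against 89.8 and 89.7 CPM in Ccbe1 nuclei and 248 and 381 CPM in Spag17 nuclei. Its log2 fold change was 1.86 ± 0.13 (SE, adjusted p = 6.14e-10), and Ccbe1 nuclei had the lowest values. Col4a3, a chain of the type IV collagen of basement membranes (chromosome 1, 82586921 to 82722059, plus strand), had 202 and 205 CPM in C7 nuclei, against 20.3 and 24.2 CPM in Ccbe1 nuclei and 85.2 and 161 CPM in Spag17 nuclei. Its log2 fold change was 2.0 ± 0.19 (SE, adjusted p = 6.40e-08) against the mean and 3.25 ± 0.25 (SE, adjusted p = 3.42e-10) against Ccbe1 nuclei, while that against Spag17 nuclei, 0.75 (adjusted p = 0.0638), did not pass. Both genes also lead cluster 0. Osbpl6, of a family of lipid-binding proteins, had 116 and 113 CPM in C7 nuclei, against 23.7 and 33.9 CPM in Ccbe1 nuclei and 15.5 and 41.6 CPM in Spag17 nuclei, a log2 fold change of 2.04 ± 0.25 (SE, adjusted p = 4.55e-06). Rims1, known as a scaffold of vesicle release at synapses, had 144 and 128 CPM in C7 nuclei, against 67.8 and 80 CPM in Ccbe1 nuclei and 15.5 and 23.8 CPM in Spag17 nuclei, a log2 fold change of 1.88 ± 0.25 (SE, adjusted p = 9.83e-06). For Rims1 the closest values were 128 CPM in C7 nuclei and 80 CPM in Ccbe1 nuclei, both of mouse 2. Camk2b, a subunit of a calcium-dependent kinase, had 75.3 and 83 CPM in C7 nuclei, against 33.9 and 24.2 CPM in Ccbe1 nuclei and 31 and 11.9 CPM in Spag17 nuclei, with a log2 fold change of 1.71 (adjusted p = 2.66e-04). Baiap2l1, an actin-binding membrane-shaping protein, had 72.5 and 45 CPM in C7 nuclei, against 11.9 and 9.69 CPM in Ccbe1 nuclei and 31 and 17.8 CPM in Spag17 nuclei, with a log2 fold change of 1.92 (adjusted p = 1.46e-04). All of these genes were higher in C7 nuclei in both mice, which the choice rule requires.

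4 of the 12 rises rested on 1 to 3 counts in Spag17 nuclei, where a ratio has a wide counting interval. Hunk, a serine/threonine kinase gene, had 65.6 and 56 CPM in C7 nuclei, against 28.8 and 38.8 CPM in Ccbe1 nuclei and 0 and 5.95 CPM in Spag17 nuclei. Summed over both mice its ratio of C7 to Spag17 nuclei was 18.7 (exact 95% interval 3.32 to 742), and its log2 fold change over Ccbe1 nuclei was 0.95 (adjusted p = 0.0303). Myrip, which links vesicles to actin motors, had 46.3 and 60 CPM in C7 nuclei, against 15.2 and 9.69 CPM in Ccbe1 nuclei and 0 and 11.9 CPM in Spag17 nuclei. Its ratio to Spag17 nuclei was 7.47 (2.04 to 62.2) and its log2 fold change over Ccbe1 nuclei 2.04 (adjusted p = 4.67e-04). Atp6ap2, an accessory protein of the vacuolar proton pump, had 63.2 and 68 CPM in C7 nuclei, against 54.2 and 50.9 CPM in Ccbe1 nuclei and 0 and 5.95 CPM in Spag17 nuclei, and passed against Spag17 nuclei (ratio 19.2, 3.41 to 762) but not against Ccbe1 nuclei, 0.35 (adjusted p = 0.49). Bmp7, a secreted bone morphogenetic protein, had 61.2 and 61 CPM in C7 nuclei, against 42.4 and 24.2 CPM in Ccbe1 nuclei and 15.5 and 5.95 CPM in Spag17 nuclei, with a ratio to Spag17 nuclei of 6.06 (2.05 to 29.6). Against Ccbe1 nuclei Bmp7 did not pass, at 0.86 (adjusted p = 0.0509). DESeq2 called none of these 4 genes, nor Baiap2l1 or Camk2b, against the mean, with adjusted p between 0.0583 and 0.173.

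Another rise, the muscle gene Trdn, moved with the muscle nuclei described above. Trdn, the gene of triadin in the calcium stores of muscle, had 236 and 147 CPM in C7 nuclei, against 32.2 and 80 CPM in Ccbe1 nuclei and 15.5 and 77.3 CPM in Spag17 nuclei, a log2 fold change of 1.97 ± 0.28 (SE, adjusted p = 2.63e-05). Without the nuclei over 1% muscle UMIs its C7 values were 63.4 and 96.8 CPM and its log2 fold change 0.91 (adjusted p = 0.0185). Trdn was higher still in the nuclei outside the gates, at 742 and 573 CPM.

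Of the largest falls, Fam155a, an auxiliary subunit of a sodium leak channel, had 4.83 and 9.01 CPM in C7 nuclei, against 40.7 and 38.8 CPM in Ccbe1 nuclei and 201 and 41.6 CPM in Spag17 nuclei, a log2 fold change of -3.46 ± 0.43 (SE, adjusted p = 4.51e-06). Cacna2d3, an auxiliary calcium channel subunit (chromosome 14, 28904943 to 29721864), had 12.1 and 16 CPM in C7 nuclei, against 183 and 172 CPM in Ccbe1 nuclei and 69.7 and 101 CPM in Spag17 nuclei, a log2 fold change of -3.14 ± 0.29 (SE, adjusted p = 3.55e-08). Gna14, a G protein alpha subunit, had 25.4 and 15 CPM in C7 nuclei, against 149 and 179 CPM in Ccbe1 nuclei and 194 and 184 CPM in Spag17 nuclei, a log2 fold change of -2.94 ± 0.23 (SE, adjusted p = 3.07e-09). For Gna14, as for every fall by the choice rule, both C7 values lay under all 4 values of the other subsets. Lepr, the leptin receptor (chromosome 4, 101717404 to 101815352), had 19.7 and 29 CPM in C7 nuclei, against 112 and 72.7 CPM in Ccbe1 nuclei and 170.3 and 256 CPM in Spag17 nuclei, a log2 fold change of -2.58 ± 0.25 (SE, adjusted p = 6.40e-08). Foxp2, a forkhead transcription factor, had 21.7 and 21 CPM in C7 nuclei, against 49.1 and 41.2 CPM in Ccbe1 nuclei and 309.7 and 303 CPM in Spag17 nuclei, a log2 fold change of -2.42 ± 0.23 (SE, adjusted p = 6.40e-08). Foxp2 and Lepr were highest in Spag17 nuclei, and by the choice rule C7 nuclei had the lowest values.

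The other 7 falls divided by the subset that was high. Prdm6, a transcriptional regulator known from smooth muscle, had 9.66 and 2 CPM in C7 nuclei, against 20.3 and 14.5 CPM in Ccbe1 nuclei and 92.9 and 101 CPM in Spag17 nuclei, and passed against Spag17 nuclei only, at -3.81 (adjusted p = 8.08e-06). Anks1b, a synaptic scaffold gene, had 6.44 and 4 CPM in C7 nuclei, against 20.3 and 9.69 CPM in Ccbe1 nuclei and 139 and 71.4 CPM in Spag17 nuclei, and likewise passed against Spag17 nuclei only, at -4.27 (adjusted p = 8.44e-07). Rspo1, a secreted R-spondin that strengthens Wnt signalling, had 11.3 and 6 CPM in C7 nuclei, against 69.5 and 89.7 CPM in Ccbe1 nuclei and 23.2 and 17.8 CPM in Spag17 nuclei, and passed against Ccbe1 nuclei only, at -2.96 (adjusted p = 2.95e-07). Whether these differences from one subset exceed those from the other was not tested. Dlgap1 and Ppfia2, both scaffold genes of synapses, had log2 fold changes of -2.45 (adjusted p = 9.94e-06) and -2.54 (adjusted p = 2.24e-04) and passed against each subset. The endocytic genes Dnajc6 and Ston1 had -2.0 (adjusted p = 7.26e-05) and -1.95 (adjusted p = 2.32e-04) and also passed against each.

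**Figure D4:**
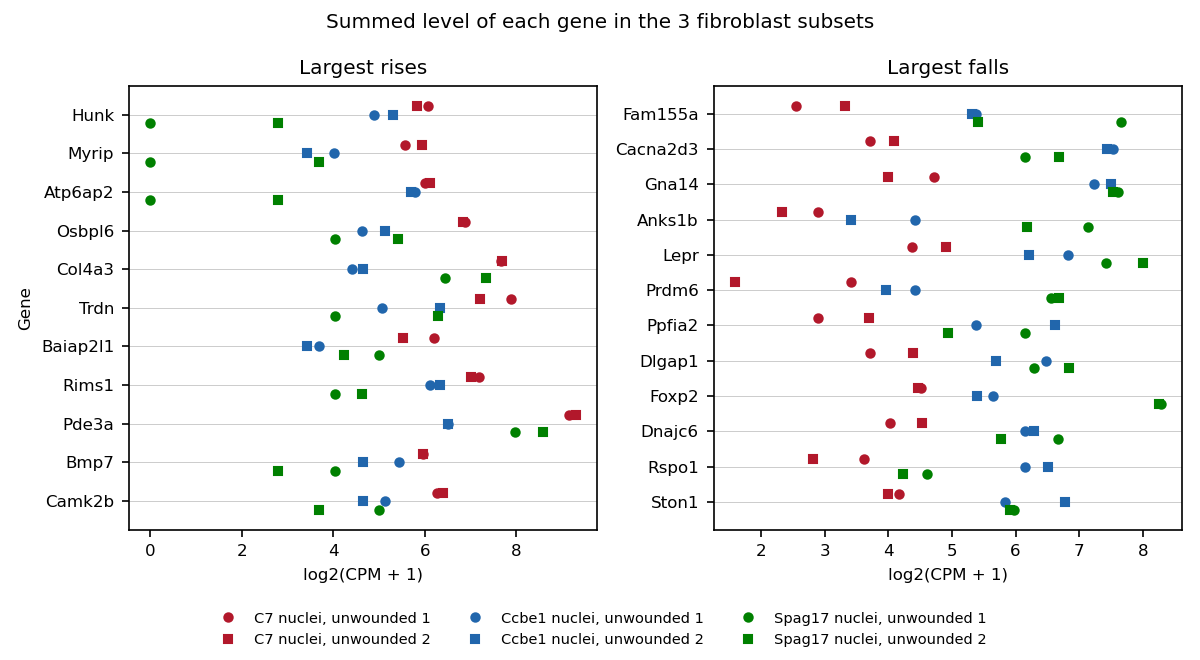
Level of genes among the 12 of largest rise (left) and of the 12 genes of largest fall (right) in C7, Ccbe1 and Spag17 nuclei, as log2(CPM + 1) on the horizontal axis, with a circle for mouse 1 and a square for mouse 2. By the choice rule the C7 points lie beyond all other points, from 564 and 629 CPM for Pde3a to 4.83 and 9.01 CPM for Fam155a.

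The main fibrillar collagen genes were higher in C7 than in Spag17 nuclei and did not pass against Ccbe1 nuclei. Of 14 fibrillar and associated collagen genes 13 could be tested, and 4 were higher and 1 lower in C7 nuclei, beside backgrounds of 3.65% and 3.07% (3 and none with DESeq2), with a median log2 fold change of 0.17 against 0.03 for all genes. Col1a1, of the main fibrillar collagen, had 3414 and 4065 CPM in C7 nuclei, against 3403 and 3789.6 CPM in Ccbe1 nuclei and 1269.7 and 1665 CPM in Spag17 nuclei, a log2 fold change of 0.75 ± 0.09 (SE, adjusted p = 1.43e-06). Col1a2, its partner chain, had 5359 and 5632 CPM in C7 nuclei, against 5472 and 5248 CPM in Ccbe1 nuclei and 2563 and 2218 CPM in Spag17 nuclei, a log2 fold change of 0.67 ± 0.08 (SE, adjusted p = 4.55e-06). Col3a1, a fibrillar collagen of young and elastic skin matrix, had 3107 and 2733 CPM in C7 nuclei, against 3005 and 2481 CPM in Ccbe1 nuclei and 1819 and 1374 CPM in Spag17 nuclei, a log2 fold change of 0.54 ± 0.09 (SE, adjusted p = 1.24e-04). For all 3 the C7 values overlapped those of Ccbe1 nuclei and lay above those of Spag17 nuclei, and none passed against Ccbe1 nuclei. Col1a1 also had 2331 and 3426 CPM in nuclei outside the gates. Col6a6, a chain of microfibrillar type VI collagen, had 63.6 and 71 CPM in C7 nuclei, against 10.2 and 17 CPM in Ccbe1 nuclei and 139 and 71.4 CPM in Spag17 nuclei, a log2 fold change of 2.39 (adjusted p = 2.75e-05) over Ccbe1 nuclei. Col6a2 was lower in C7 nuclei by a call that rested on the fit, at -0.80 (adjusted p = 0.0343) with edgeR and an adjusted p of 0.737 with DESeq2. Col14a1, which binds collagen fibrils and was picked after its values were seen, had 235 and 251 CPM in C7 nuclei, against 40.7 and 48.5 CPM in Ccbe1 nuclei and 573 and 1195 CPM in Spag17 nuclei, above every Ccbe1 value and below every Spag17 value.

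Of 15 basement membrane genes 13 could be tested, with 3 higher and 1 lower, beside backgrounds of 3.65% and 3.07%. DESeq2 called 1 higher and none lower. Col4a4 (chromosome 1, 82448423 to 82586849, minus strand) lies head to head with Col4a3, 71 bp apart, and had 134 and 133 CPM in C7 nuclei, against 35.6 and 43.6 CPM in Ccbe1 nuclei and 178 and 220.0 CPM in Spag17 nuclei. Its log2 fold change was 0.65 ± 0.18 (SE, adjusted p = 0.0207) against the mean and 1.83 ± 0.23 (SE, adjusted p = 1.10e-06) against Ccbe1 nuclei, with Spag17 nuclei above C7 nuclei in both mice. DESeq2 and the fit without mouse as a block did not call Col4a4 against the mean, with an adjusted p of 0.618 from DESeq2. Col15a1, of vessel and nerve basement membranes, had 345 and 281 CPM in C7 nuclei, against 491 and 395 CPM in Ccbe1 nuclei and 101 and 125 CPM in Spag17 nuclei, a log2 fold change of 0.52 (adjusted p = 0.0295) that DESeq2 also did not call (adjusted p = 0.529). Its C7 values lay between those of the other subsets. Lama4, a laminin chain, had 223 and 211 CPM in C7 nuclei, against 329 and 296 CPM in Ccbe1 nuclei and 387 and 398 CPM in Spag17 nuclei, a log2 fold change of -0.64 ± 0.12 (SE, adjusted p = 7.34e-04), and was lowest in C7 nuclei.

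In the list of 21 proteoglycan and elastic fibre genes 18 could be tested, 1 higher and 2 lower, beside backgrounds of 3.65% and 3.07%. DESeq2 called none higher and 1 lower. Eln, the gene of elastin, had 303 and 328 CPM in C7 nuclei, against 622 and 620.3 CPM in Ccbe1 nuclei and 441 and 726 CPM in Spag17 nuclei, a log2 fold change of -0.89 ± 0.12 (SE, adjusted p = 1.90e-05), and was lower in C7 nuclei than in each subset. Loxl1, a lysyl oxidase that crosslinks elastin, had 93 and 78 CPM in C7 nuclei, against 20.3 and 17 CPM in Ccbe1 nuclei and 38.7 and 83.3 CPM in Spag17 nuclei, a log2 fold change of 1.36 ± 0.25 (SE, adjusted p = 7.34e-04). The Loxl1 difference passed against Ccbe1 nuclei, not against Spag17 nuclei, and DESeq2 did not call it against the mean (adjusted p = 0.117). Ltbp1, which stores latent TGF-beta in the matrix, had 384 and 319 CPM in C7 nuclei, against 1371 and 860.2 CPM in Ccbe1 nuclei and 348 and 167 CPM in Spag17 nuclei, and was lower than in Ccbe1 nuclei at -1.61 (adjusted p = 4.15e-10). Dcn, the gene of decorin, did not pass against the mean at -0.34 (adjusted p = 0.0533).

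Of 25 genes of matrix proteases and their inhibitors 18 could be tested, 4 higher and 3 lower, the background being 3.65% and 3.07%. DESeq2 called 1 higher and 2 lower. Adamts2, which trims procollagen, had 1457 and 1402 CPM in C7 nuclei, against 1238 and 1269.7 CPM in Ccbe1 nuclei and 805 and 999 CPM in Spag17 nuclei, a log2 fold change of 0.47 ± 0.10 (SE, adjusted p = 0.00191). Mmp14, a membrane-bound matrix metalloproteinase, had 410.3 and 460.3 CPM in C7 nuclei, against 451 and 516 CPM in Ccbe1 nuclei and 178 and 202 CPM in Spag17 nuclei, and passed against Spag17 nuclei at 1.25 (adjusted p = 2.99e-05). Adamts12 had 562 and 830.5 CPM in C7 nuclei, against 312 and 376 CPM in Ccbe1 nuclei and 643 and 833 CPM in Spag17 nuclei, and passed against Ccbe1 nuclei at 1.04 (adjusted p = 5.58e-07). Adamts15, a protease of aggregating proteoglycans, had 6.44 and 8 CPM in C7 nuclei, against 16.9 and 17 CPM in Ccbe1 nuclei and 85.2 and 41.6 CPM in Spag17 nuclei, a log2 fold change of -2.17 (adjusted p = 0.00245). Adamts2 and Mmp14 did not pass against Ccbe1 nuclei, and Adamts12 did not pass against Spag17 nuclei. DESeq2 called neither Mmp14 nor Adamts12 against the mean, with adjusted p of 0.157 and 0.108.

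Among complement genes C7's neighbour C6 was higher in C7 nuclei. C7 and C6 join the same pore-forming membrane attack complex, after C3 and C5 are cleaved. C6 (chromosome 15, 4727175 to 4814967, plus strand) lies 174 kb from C7 and had 53.5 and 44 CPM in C7 nuclei, against 11.9 and 2.42 CPM in Ccbe1 nuclei and 15.5 and 11.9 CPM in Spag17 nuclei, a log2 fold change of 2.26 ± 0.39 (SE, adjusted p = 2.57e-04). Both C7 values lay above all the others, but the pairwise contrast passed against Ccbe1 nuclei only, at 2.67 (adjusted p = 6.06e-05), and both Spag17 values were under the floor. With DESeq2 the adjusted p of C6 against the mean was 0.0652. C1qtnf7, a secreted protein with a C1q-like domain, had 162 and 144 CPM in C7 nuclei, against 722 and 630.0 CPM in Ccbe1 nuclei and 379 and 244 CPM in Spag17 nuclei, a log2 fold change of -1.53 ± 0.13 (SE, adjusted p = 2.46e-08). Of 18 genes in the complement list 11 could be tested. These 2, 1 higher and 1 lower, were the calls against the mean, beside backgrounds of 3.65% and 3.07%. The lower call is thus of a gene with a C1q-like domain, not of a complement component. DESeq2 called none higher and 1 lower. Against Ccbe1 nuclei 4 were higher and 2 lower (1 and 1 with DESeq2), beside backgrounds of 5.40% and 5.26%. C1s1, a protease of the classical pathway, was picked after its values were seen. It had 47.9 and 47 CPM in C7 nuclei, against 18.6 and 26.7 CPM in Ccbe1 nuclei and 85.2 and 65.4 CPM in Spag17 nuclei. Its log2 fold change over Ccbe1 nuclei was 1.16 (adjusted p = 0.0184).

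The Wnt list held 48 genes without the gate gene Lgr5, 27 could be tested, and 5 were lower and 1 higher (5 and none with DESeq2), beside backgrounds of 3.07% and 3.65%, with a median log2 fold change of -0.15 against 0.03 for all genes. Among ligand-side genes, Rspo3, like Rspo1 an R-spondin and so a ligand of Lgr receptors, had 4.03 and 6 CPM in C7 nuclei, against 20.3 and 36.3 CPM in Ccbe1 nuclei and 54.2 and 11.9 CPM in Spag17 nuclei, a log2 fold change of -2.50 (adjusted p = 0.00673). Dkk2, a secreted Wnt modulator, had 32.2 and 24 CPM in C7 nuclei, against 176 and 206 CPM in Ccbe1 nuclei and 77.4 and 53.5 CPM in Spag17 nuclei, a log2 fold change of -1.86 ± 0.28 (SE, adjusted p = 4.44e-05). Sfrp4, a secreted Wnt-binding protein, had 10.1 and 13 CPM in C7 nuclei, against 3.39 and 17 CPM in Ccbe1 nuclei and 232 and 232 CPM in Spag17 nuclei, a log2 fold change of -1.94 (adjusted p = 0.00462) that came from Spag17 nuclei. The receptor Ror1, which binds Wnt5a, had 207 and 221 CPM in C7 nuclei, against 678 and 921 CPM in Ccbe1 nuclei and 248 and 208 CPM in Spag17 nuclei, a log2 fold change of -0.91 ± 0.14 (SE, adjusted p = 7.83e-05) that came from Ccbe1 nuclei. Tcf7l1, a nuclear repressor of Wnt targets, was the gene called higher, with 649.8 and 548 CPM in C7 nuclei, against 429 and 446 CPM in Ccbe1 nuclei and 403 and 422 CPM in Spag17 nuclei and a log2 fold change of 0.55 ± 0.11 (SE, adjusted p = 0.00183). Tcf7l1 passed against each subset, and its C7 values lay above all the others, yet DESeq2 gave an adjusted p of 0.107. Rspo3 and Sfrp4 did not pass once nuclei with 2 markers of another cell type were left out, at -2.34 (adjusted p = 0.0799) and -1.46 (adjusted p = 0.125).

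In the pairwise contrasts 11 of the 27 Wnt genes were lower and 6 higher in C7 than in Ccbe1 nuclei (9 and 1 with DESeq2), beside backgrounds of 5.26% and 5.40%. The targets of Wnt signalling Lef1 and Axin2 and the ligand Wnt5a, picked after their values were seen, were among those lower. Lef1 had 5.64 and 3 CPM in C7 nuclei, against 93.2 and 21.8 CPM in Ccbe1 nuclei and 0 and 0 CPM in Spag17 nuclei, at -3.77 (adjusted p = 2.21e-07) against Ccbe1 nuclei. Wnt5a had 6.44 and 9.01 CPM in C7 nuclei, against 57.6 and 75.1 CPM in Ccbe1 nuclei and 15.5 and 5.95 CPM in Spag17 nuclei, at -3.05 (adjusted p = 4.16e-07) against Ccbe1 nuclei. Axin2, a feedback inhibitor, had 21.7 and 32 CPM in C7 nuclei, against 105 and 77.5 CPM in Ccbe1 nuclei and 15.5 and 11.9 CPM in Spag17 nuclei, at -1.83 (adjusted p = 1.51e-05) against Ccbe1 nuclei. Lef1 counts in Spag17 nuclei were 0, so no value against them is given. Sfrp1, also picked after its values were seen, was the reverse, with 18.1 and 18 CPM in C7 nuclei, against 5.08 and 4.85 CPM in Ccbe1 nuclei and 23.2 and 23.8 CPM in Spag17 nuclei and a log2 fold change of 1.87 (adjusted p = 0.0467) over Ccbe1 nuclei.

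Of 36 BMP and TGF-beta genes 18 could be tested, and 2 were higher and 2 lower, beside backgrounds of 3.65% and 3.07%. DESeq2 called 1 higher and 1 lower. Tgfb2, a TGF-beta ligand (chromosome 1, 186622792 to 186705989), had 465 and 491 CPM in C7 nuclei, against 332 and 373 CPM in Ccbe1 nuclei and 116 and 119 CPM in Spag17 nuclei, a log2 fold change of 1.29 ± 0.13 (SE, adjusted p = 2.45e-07). Its C7 values lay above all the others, and it passed against each subset, at 0.49 (adjusted p = 0.00625) over Ccbe1 nuclei and 2.08 (adjusted p = 6.16e-08) over Spag17 nuclei. Bmp5, a BMP ligand, had 4.03 and 1 CPM in C7 nuclei, against 67.8 and 33.9 CPM in Ccbe1 nuclei and 7.74 and 17.8 CPM in Spag17 nuclei, a log2 fold change of -3.16 (adjusted p = 0.00698). Bmp5 was low in C7 nuclei in both mice and passed against Ccbe1 nuclei, at -4.09 (adjusted p = 3.49e-07).

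Of 34 FGF, PDGF, IGF, HGF and related genes 24 could be tested, 2 higher and 5 lower, beside backgrounds of 3.65% and 3.07%. DESeq2 called none higher and 3 lower. Pdgfd, a ligand of the PDGF beta receptor, had 883 and 1097 CPM in C7 nuclei, against 486 and 479.8 CPM in Ccbe1 nuclei and 952 and 1231 CPM in Spag17 nuclei, and passed against Ccbe1 nuclei at 1.06 (adjusted p = 2.72e-07). Pdgfra, the PDGF receptor common to fibroblasts, had 126 and 129 CPM in C7 nuclei, against 164 and 121 CPM in Ccbe1 nuclei and 348 and 220.0 CPM in Spag17 nuclei, and was lower than in Spag17 nuclei at -1.10 (adjusted p = 8.45e-04). Vegfc, a growth factor of lymphatic vessels, had 95.8 and 85.1 CPM in C7 nuclei, against 286 and 225 CPM in Ccbe1 nuclei and 101 and 161 CPM in Spag17 nuclei, and was lower than in Ccbe1 nuclei at -1.46 (adjusted p = 2.37e-07). Igfbp7, a secreted IGF-binding protein, had 82.9 and 66 CPM in C7 nuclei, against 202 and 138 CPM in Ccbe1 nuclei and 240.0 and 107 CPM in Spag17 nuclei, a log2 fold change of -1.15 ± 0.18 (SE, adjusted p = 9.77e-05), and was lowest in C7 nuclei. Igf1, a growth factor picked after its values were seen, had 74.9 and 62 CPM in C7 nuclei, against 39 and 24.2 CPM in Ccbe1 nuclei and 178 and 226 CPM in Spag17 nuclei. For Igf1 the C7 values stood between the subsets, higher than in Ccbe1 nuclei at 1.13 (adjusted p = 0.00652) and lower than in Spag17 nuclei at -1.53 (adjusted p = 1.74e-04). DESeq2 called neither Pdgfd nor Pdgfra against the mean (adjusted p = 0.0684 and 0.441).

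The Hedgehog co-receptors Cdon and Boc and the effector Gli2 were lower in C7 nuclei. Of 20 Hedgehog and Notch genes 9 could be tested, and 4 were lower and none higher against the mean (none higher at an unadjusted p under 0.05 or with DESeq2), where 3.07% of all genes were lower. DESeq2 kept Cdon and Boc and gave an adjusted p of 0.208 for Gli2. Cdon, a Hedgehog co-receptor, had 165 and 183 CPM in C7 nuclei, against 337 and 378 CPM in Ccbe1 nuclei and 828 and 827 CPM in Spag17 nuclei, a log2 fold change of -1.59 ± 0.11 (SE, adjusted p = 8.91e-10). Boc, its paralog, had 222 and 151 CPM in C7 nuclei, against 271 and 169.6 CPM in Ccbe1 nuclei and 549.7 and 387 CPM in Spag17 nuclei, a log2 fold change of -0.74 ± 0.12 (SE, adjusted p = 1.74e-04). Gli2, the transcription factor that carries the signal, had 91.8 and 80 CPM in C7 nuclei, against 134 and 133 CPM in Ccbe1 nuclei and 155 and 196 CPM in Spag17 nuclei, a log2 fold change of -0.77 (adjusted p = 0.00432). Cdon and Gli2 were lower than in each subset, and Boc passed against Spag17 nuclei only. Ptch1, the main receptor and target and picked after its values were seen, went the other way against Ccbe1 nuclei, with 29.8 and 21 CPM in C7 nuclei, against 8.47 and 7.27 CPM in Ccbe1 nuclei and 38.7 and 65.4 CPM in Spag17 nuclei and a log2 fold change of 1.76 (adjusted p = 0.0189).

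Of the papillary markers tested, 9 of 12 were lower in C7 than in Ccbe1 nuclei. Of 15 papillary markers 12 could be tested, and against Ccbe1 nuclei 9 were lower and none higher by edgeR, beside backgrounds of 5.26% lower and 5.40% higher, with a median log2 fold change of -1.56 against 0.01 for all genes. At an unadjusted p under 0.05 the counts were the same, and DESeq2 called 8 lower and none higher. Against Spag17 nuclei 2 were lower and 1 higher, beside backgrounds of 4.85% and 3.26%. Ntn1, a guidance molecule of the papillary dermis, had 183 and 153 CPM in C7 nuclei, against 296 and 293 CPM in Ccbe1 nuclei and 441 and 428 CPM in Spag17 nuclei, a log2 fold change of -1.03 ± 0.12 (SE, adjusted p = 3.04e-06) against the mean. Dpp4, a surface peptidase, had 260.1 and 241 CPM in C7 nuclei, against 342 and 271 CPM in Ccbe1 nuclei and 604 and 660.1 CPM in Spag17 nuclei, and was lower than in Spag17 nuclei at -1.30 (adjusted p = 1.08e-06). Trps1, a transcription factor picked after its values were seen, had 267 and 269 CPM in C7 nuclei, against 983 and 739 CPM in Ccbe1 nuclei and 132 and 83.3 CPM in Spag17 nuclei. Its C7 values stood below the Ccbe1 values, at -1.65 (adjusted p = 2.65e-10), and above the Spag17 values, at 1.38 (adjusted p = 3.33e-04).

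Of 22 markers of the reticular dermis, hypodermis and fascia 18 could be tested. Against Ccbe1 nuclei 10 were higher and 1 lower (6 and none with DESeq2), beside backgrounds of 5.40% and 5.26%, with a median log2 fold change of 0.89. Against Spag17 nuclei none was higher and 9 were lower by edgeR, beside backgrounds of 3.26% and 4.85%, with a median of -0.87. At an unadjusted p under 0.05, 1 was higher and 10 lower than in Spag17 nuclei, and DESeq2 called 7 lower and none higher. Pi16, a marker of fibroblasts of the fascia and around vessels, had 122 and 181 CPM in C7 nuclei, against 50.8 and 119 CPM in Ccbe1 nuclei and 526 and 714 CPM in Spag17 nuclei, at 0.95 (adjusted p = 9.23e-04) over Ccbe1 nuclei and -1.97 (adjusted p = 4.20e-09) over Spag17 nuclei. Ebf2, a transcription factor known from fat precursors and picked after its values were seen, had 83.7 and 108 CPM in C7 nuclei, against 27.1 and 4.85 CPM in Ccbe1 nuclei and 674 and 428 CPM in Spag17 nuclei. Its log2 fold change was 2.42 (adjusted p = 2.37e-05) over Ccbe1 nuclei and -2.50 (adjusted p = 1.61e-08) over Spag17 nuclei, and it also leads cluster 9. Opcml, a neural adhesion molecule, was the list's rise against the mean, with 3159.7 and 3576 CPM in C7 nuclei, against 1963 and 2416 CPM in Ccbe1 nuclei and 2795 and 3633 CPM in Spag17 nuclei and 0.40 (adjusted p = 0.0026). Fmo1, a flavin monooxygenase, had 23.8 and 19 CPM in C7 nuclei, against 35.6 and 60.6 CPM in Ccbe1 nuclei and 54.2 and 95.1 CPM in Spag17 nuclei, and was lower than in Spag17 nuclei at -1.67 (adjusted p = 0.0126).

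Of 18 perivascular and reticular-cell type fibroblast genes 9 could be tested. Against Ccbe1 nuclei 5 were higher and 1 lower, beside backgrounds of 5.40% and 5.26%, and against Spag17 nuclei 1 was higher and 7 lower, beside backgrounds of 3.26% and 4.85%. DESeq2 called 2 higher and none lower against Ccbe1 nuclei, and 1 higher and 3 lower against Spag17 nuclei. Abca8a, a lipid transporter, had 108 and 136 CPM in C7 nuclei, against 77.9 and 70.3 CPM in Ccbe1 nuclei and 782 and 880.1 CPM in Spag17 nuclei, at 0.72 (adjusted p = 0.012) over Ccbe1 nuclei and -2.73 (adjusted p = 4.88e-12) over Spag17 nuclei. Apod, a lipid-binding apolipoprotein, had 24.6 and 19 CPM in C7 nuclei, against 28.8 and 17 CPM in Ccbe1 nuclei and 147 and 59.5 CPM in Spag17 nuclei, and was lower than in Spag17 nuclei at -2.18 (adjusted p = 3.39e-04). Both values of these genes in C7 nuclei were far under the Spag17 values. The dermal papilla and sheath list, 5 tested of 16, had 3 lower against Ccbe1 nuclei and 2 higher against Spag17 nuclei (1 and 1 with DESeq2). The nerve sheath list, 6 tested of 14, had 2 higher and 1 lower against Ccbe1 nuclei and 1 lower against Spag17 nuclei (1, 1 and 1 with DESeq2). The backgrounds were 5.40% higher and 5.26% lower against Ccbe1 nuclei, and 3.26% and 4.85% against Spag17 nuclei. Ntng1, a netrin-G gene of nerve sheath fibroblasts, had 3.62 and 8 CPM in C7 nuclei, against 74.5 and 82.4 CPM in Ccbe1 nuclei and 15.5 and 5.95 CPM in Spag17 nuclei, and was lower than in Ccbe1 nuclei at -3.86 (adjusted p = 1.90e-08).

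**Figure D5:**
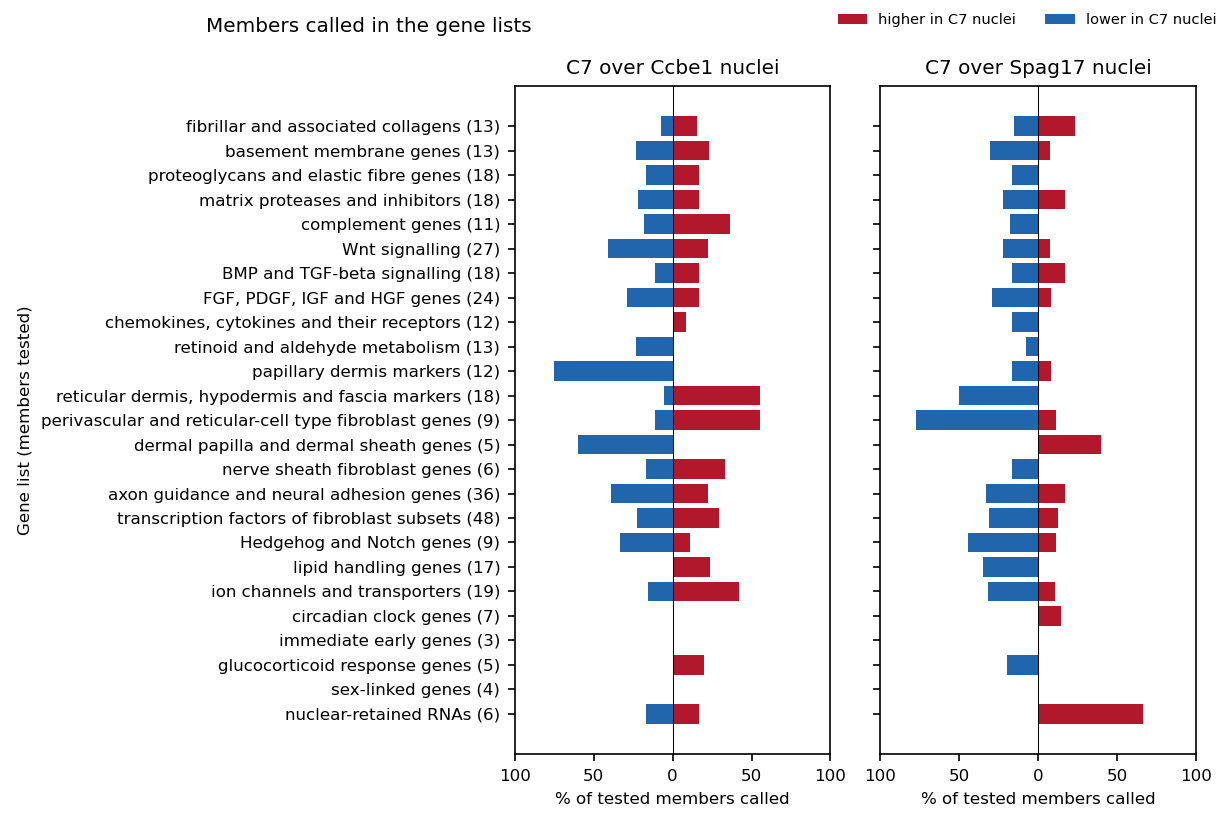
Percent of the tested members of each of 25 gene lists (vertical axis, members tested in brackets) that were called higher (red, right of 0) or lower (blue, left of 0) in C7 nuclei than in Ccbe1 nuclei (left panel) and in Spag17 nuclei (right panel), edgeR adjusted p under 0.05. Papillary markers were lower against Ccbe1 nuclei (9 of 12). Reticular, hypodermis and fascia markers were higher against Ccbe1 nuclei (10 of 18) and lower against Spag17 nuclei (9 of 18). Over all genes tested, 5.40% were higher and 5.26% lower than in Ccbe1 nuclei, and 3.26% and 4.85% than in Spag17 nuclei.

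Of 67 transcription factor genes known from fibroblast subsets 48 could be tested, 6 higher and 9 lower against the mean, beside backgrounds of 3.65% and 3.07%. DESeq2 called none higher and 7 lower. Sox5 had 204 and 222 CPM in C7 nuclei, against 327 and 213 CPM in Ccbe1 nuclei and 1487 and 1035 CPM in Spag17 nuclei, a log2 fold change of -1.42 ± 0.13 (SE, adjusted p = 4.59e-08). Zfhx3, a large homeodomain factor, had 122 and 97.1 CPM in C7 nuclei, against 205 and 159.9 CPM in Ccbe1 nuclei and 426 and 381 CPM in Spag17 nuclei, a log2 fold change of -1.26 ± 0.14 (SE, adjusted p = 5.25e-07). Bnc2, a zinc finger factor, had 78.5 and 77 CPM in C7 nuclei, against 40.7 and 43.6 CPM in Ccbe1 nuclei and 782 and 678 CPM in Spag17 nuclei, at 0.94 (adjusted p = 0.00752) over Ccbe1 nuclei and -3.18 (adjusted p = 2.12e-12) over Spag17 nuclei. In these 3 genes Spag17 nuclei had the highest values. Sox5 did not pass against Ccbe1 nuclei, at -0.33 (adjusted p = 0.244). Runx2, a factor known from bone and picked after its values were seen, was a rise, with 88.2 and 94.1 CPM in C7 nuclei, against 30.5 and 41.2 CPM in Ccbe1 nuclei and 61.9 and 5.95 CPM in Spag17 nuclei and a log2 fold change of 1.52 ± 0.30 (SE, adjusted p = 0.00118). Pparg, the receptor that drives fat cell formation, had 102 and 84.1 CPM in C7 nuclei, against 55.9 and 63 CPM in Ccbe1 nuclei and 38.7 and 65.4 CPM in Spag17 nuclei, at 0.79 (adjusted p = 0.0329) against the mean, and 195 and 179 CPM in nuclei outside the gates. The adipocyte markers, Pparg among them, summed to 147 and 108 CPM in C7 nuclei, against 74.5 and 84.8 CPM in Ccbe1 nuclei and 54.2 and 83.3 CPM in Spag17 nuclei, and their part in the Pparg call was not tested. DESeq2 did not call Pparg (adjusted p = 0.786), nor did the fit without nuclei that had 2 markers of another cell type (adjusted p = 0.134). Rarb, the retinoic acid receptor beta, was the one call against the mean among 13 retinoid and aldehyde genes tested of 23. It was lower, beside a background of 3.07%. Rarb had 73.3 and 50.03 CPM in C7 nuclei, against 499.8 and 472 CPM in Ccbe1 nuclei and 85.2 and 71.4 CPM in Spag17 nuclei, at -2.88 (adjusted p = 8.52e-13) against Ccbe1 nuclei.

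Of 48 guidance and adhesion genes of the nervous system 36 could be tested. Against the mean 5 were higher and 9 lower, beside backgrounds of 3.65% and 3.07%, and 22 did not pass. DESeq2 called 2 higher and 7 lower. Robo1, a receptor for Slit proteins, had 1198 and 1108 CPM in C7 nuclei, against 1071 and 1269.7 CPM in Ccbe1 nuclei and 271 and 309 CPM in Spag17 nuclei, a log2 fold change of 1.04 ± 0.11 (SE, adjusted p = 5.05e-07) that came from Spag17 nuclei. Lsamp, a neural adhesion molecule (chromosome 16, 39984361 to 42181679), had 264 and 246 CPM in C7 nuclei, against 1338 and 1258 CPM in Ccbe1 nuclei and 325 and 571 CPM in Spag17 nuclei, a log2 fold change of -1.54 ± 0.14 (SE, adjusted p = 2.59e-08). Sema3a, a secreted semaphorin that repels axons, had 444 and 527 CPM in C7 nuclei, against 1999 and 1912 CPM in Ccbe1 nuclei and 441 and 469.8 CPM in Spag17 nuclei, a log2 fold change of -0.92 ± 0.11 (SE, adjusted p = 4.04e-06) that came from Ccbe1 nuclei. C7 nuclei had the lowest Lsamp levels, while their Robo1 levels overlapped those of Ccbe1 nuclei and their Sema3a levels those of Spag17 nuclei.

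Of 28 ion channel and transporter genes 19 could be tested, 2 higher and none lower against the mean by edgeR, beside backgrounds of 3.65% and 3.07% (6 and 3 at an unadjusted p under 0.05, 1 and none with DESeq2). Kcnq5, a potassium channel gene, had 255 and 77 CPM in C7 nuclei, against 50.8 and 107 CPM in Ccbe1 nuclei and 54.2 and 77.3 CPM in Spag17 nuclei, at 1.27 (adjusted p = 0.0141), and 662 and 346 CPM outside the gates. Without the muscle-rich nuclei Kcnq5 had 60.5 and 43.8 CPM in C7 nuclei and a log2 fold change of -0.03 (adjusted p = 0.970), and in mouse 2 alone it was -0.21. Of 23 lipid handling genes 17 could be tested, 1 higher and 2 lower against the mean, near the backgrounds of 3.65% and 3.07%, and DESeq2 called none higher and 1 lower. Against Ccbe1 nuclei 4 were higher (background 5.40%, 1 with DESeq2), and against Spag17 nuclei 6 were lower (background 4.85%, 2 with DESeq2).

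Several lists were without a call against the mean. No gene passed among 12 of 28 chemokines, cytokines and receptors tested, 7 of 16 circadian clock genes, 3 of 18 immediate early genes, 5 of 10 glucocorticoid response genes or 4 of 6 sex-linked genes, with list medians between -0.15 and 0.24. Over all genes tested 6.72% were called in either direction. With so few genes tested, no call is near that share and is not a result about these lists. At an unadjusted p under 0.05, edgeR had 1 chemokine list gene lower, 1 clock and 1 glucocorticoid gene higher and 1 of each lower, and DESeq2 called none in these lists. Most chemokine and immediate early genes were thus under the filter on low counts in these nuclei. Of 6 RNAs kept in the nucleus 5 were higher and 1 lower against the mean (3 and 1 with DESeq2), beside backgrounds of 3.65% and 3.07%. Against Ccbe1 nuclei 1 was higher and 1 lower, beside backgrounds of 5.40% and 5.26%. Against Spag17 nuclei 4 were higher and none lower, beside backgrounds of 3.26% and 4.85%. None was lower than in Spag17 nuclei at an unadjusted p under 0.05 or with DESeq2 either. Malat1, the most abundant of them, had 107914 and 110742 CPM in C7 nuclei, against 96588 and 98676 CPM in Ccbe1 nuclei and 77911 and 74346 CPM in Spag17 nuclei, a log2 fold change of 0.39 ± 0.07 (SE, adjusted p = 2.31e-04). Malat1 passed against Spag17 nuclei, at 0.57 (adjusted p = 9.62e-06), but not against Ccbe1 nuclei, at 0.21 (adjusted p = 0.09). Without the deepest 10% of nuclei it did not pass against the mean (edgeR adjusted p = 0.127). Meg3, of an imprinted cluster, had 5757 and 5534 CPM in C7 nuclei, against 5618 and 4975 CPM in Ccbe1 nuclei and 3422 and 3312 CPM in Spag17 nuclei, a log2 fold change of 0.47 ± 0.08 (SE, adjusted p = 2.85e-04). Rian, of the same cluster, had 1279.5 and 1770.0 CPM in C7 nuclei, against 1282 and 1512 CPM in Ccbe1 nuclei and 689 and 946 CPM in Spag17 nuclei, a log2 fold change of 0.55 ± 0.10 (SE, adjusted p = 3.01e-04). For Meg3 and Rian the C7 and Ccbe1 values overlapped, and the calls came from Spag17 nuclei. Miat had 112 and 117 CPM in C7 nuclei, against 369 and 511 CPM in Ccbe1 nuclei and 139 and 95.1 CPM in Spag17 nuclei, and was lower than in Ccbe1 nuclei at -1.85 (adjusted p = 4.02e-10). Median UMIs per nucleus were 1268 and 971 UMIs in C7 nuclei, 1553 and 1104 UMIs in Ccbe1 nuclei and 1253 and 939 UMIs in Spag17 nuclei.

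Few genes differed over 2-fold between the C7 nuclei of the 2 mice. Of 3756 genes of at least 50 CPM in at least 1 of the mice, 24 (0.639%) differed by over 2-fold, 17 higher in mouse 1 and 7 in mouse 2, with no test for 2 samples of a group. Muscle genes were among those higher in mouse 1, with Ttn at 2090 and 1027 CPM and Myh1 at 112 and 35 CPM. Cdk8, a kinase of the Mediator complex, was higher in mouse 2, at 1592 CPM in mouse 1 and 6185 CPM in mouse 2. The same gene stood at 2087 and 10385 CPM in the nuclei outside the gates, so the gap was not confined to C7 nuclei.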

How the data were processed

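Nuclei of back skin were profiled with the 10x Genomics 3' v3.1 chemistry, per the labels' protocols. The authors deposited unnormalized UMI counts for every gene and barcode. The submitters' processing notes name Cell Ranger 5.0.1 and the GRCm38 build. The sources used here do not say if reads in introns were counted. Coordinates come from GENCODE vM21 on GRCm38, matched for 32158 of 32285 genes.

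From these counts the gates were applied to each barcode and counts were summed per mouse and subset, giving 6 sums. Nuclei were not treated as replicates. edgeR 4.0.16 (R 4.3.3) fitted all sums with subset and mouse as terms (filterByExpr, TMM factors of 0.971 to 1.02, glmQLFit, glmQLFTest, Benjamini-Hochberg over 7321 genes without the 18 gate genes, threshold 0.05). SEs are the fold change over the square root of its F statistic. The residual degrees of freedom were 2, the prior degrees of freedom 22.7, and the common biological coefficient of variation was 0.0773. Mouse was a block because the 3 subsets come from the same animals; deviations from subset means correlated between subsets of a mouse at 0.291, 0.161 and 0.129 over 4087 genes. On simulated data with 7098 genes the fit recovered 50.5% of 2-fold and 92.2% of 4-fold changes, with 5 false calls among 6915 unchanged genes. Whether these rates hold for the real counts was not tested.

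Clusters were made with scanpy 1.11.5 (2000 variable genes without the gate genes, 30 components, 15 neighbours, Leiden resolution 1). No doublet caller was run; nuclei that met more than 1 gate, 179 and 89 of those with 2 C7 gate genes, were left out by the rule. The unwounded libraries share 30 barcodes, 29 of them kept in both and 2 of them C7 nuclei in both. The sums of C7 nuclei in the 2 mice differed beyond sampling noise (chi-square per gene 3.05), so neither is a copy of the other.

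Text genes are the 12 largest rises and falls against the mean of the other subsets, as described with the results, and up to 4 called members of smallest p from each of 25 gene lists; others are marked as picked after their values were seen. The values of some genes that this rule names are not reported here. The members, gates and lists were chosen with earlier results of these data known. Alternatives were RLE scaling, DESeq2 1.42.0, no filter, no block, stricter gates, other depth limits, other cluster settings and nuclei left out, of which the muscle-rich ones were added after seeing the data.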

Additional observations from a re-analysis of the deposited data

How the results depend on the processing

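Against the mean of the other subsets 492 genes were called, against Ccbe1 nuclei 780 and against Spag17 nuclei 594. DESeq2 called 177, 260 and 293, and leaving out the deepest 10% of nuclei gave 220, 358 and 306; the cause was not tested. Without the replicate block 331, 513 and 491 genes were called. With no filter on low counts 402 genes were higher and 181 lower against the mean (69.0% higher, against 54.3% with the filter), and 57.9% of calls against Spag17 nuclei were higher, against 40.2%. In each mouse alone 491 to 492, 779 to 780 and 594 to 594 of these genes kept their direction, with no test. The genes were called from the same mice, so this agreement follows largely from their choice and is not replication. DESeq2 called 41.2% of its genes higher against the mean. The share of C7 nuclei in mouse 1 was 9.09% with at least 3 gate genes, 19.4% with 2 of C7, Plcxd3, Aox3 and Lgr5, 33.3% at 1000 UMIs or more, 29.995% at 500 genes or more, 26.2% without nuclei that had 2 markers of another cell type and 21.9% without the deepest 10%. In mouse 2 it was 2.43%, 7.15%, 22.8% and 19.2% under the first 4 of these and 6.87% without the deepest 10%. The cluster with most C7 nuclei held 60.9% of them at resolution 0.5 (with 73.1% of Ccbe1 nuclei), 23.3% at resolution 2 (0.954% of Ccbe1 nuclei) and 25.9% with 1000 variable genes (2.54%). Of the named genes, RLE scaling kept all 78 calls, DESeq2 kept 50, the fit without a block 67 of 78, and leaving out the deepest 10% 52 of 72. Kcnq5 alone reversed, at -0.072 without nuclei that had 2 markers of another cell type, -0.030 without muscle-rich nuclei and -0.21 without replicate 1, and stood at 2.27 without replicate 2. Spag17 sums of 129160 and 168160 UMIs limit what could be seen: genes near 20 CPM there rest on 2 to 4 counts.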

Other observations

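The same gate was met by 53 of 2385 nuclei (2.22%, Wilson interval 1.70 to 2.90) and 87 of 4330 nuclei (2.01%, 1.63 to 2.47) of the wounded libraries, against 23.1% and 8.61% in the unwounded ones. Those barcodes carried few of the collagen transcripts of C7 nuclei of intact skin. Col1a1 had 1 count in each wounded library, 30.9 and 22.4 CPM, against 3414 and 4065 CPM in unwounded C7 nuclei. Col1a2 had 0 and 2 counts, against 5359 and 5632 CPM in unwounded C7 nuclei. Malat1, which every unwounded C7 nucleus held, was found in 22.6% and 39.1% of the wounded barcodes of the gate. Over all nuclei kept, Malat1 made up 0.120% and 0.289% of UMIs in the wounded libraries, against 9.37% and 8.25% in the unwounded ones. In the wounded libraries the Ccbe1 gate was met by 13% and 9.58% of nuclei and the Spag17 gate by 5.32% and 3.63%, against 4.64% and 3.13% and 1.22% and 1.36% in the unwounded libraries. The 6 genes of the C7 gate span 1179 kb of genome in sum, those of the Ccbe1 gate 2701 kb and those of the Spag17 gate 2170 kb. The part of gene length in these shares was not tested, and no comparison between wounded and intact C7 nuclei is made from them.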
